A study of Homo sapiens with 52 samples.

Results

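Which transcripts were carried by small ribosomal subunits bound to MCTS1 or DENR was read by setting 4 selected libraries against 4 unselected ones, all from the HEK293T line of transformed human embryonic kidney cells. The tested groups were MCTS1-V5 40S Sel-TCP-seq (2 libraries) and DENR-V5 40S Sel-TCP-seq (2 libraries), and the control was TCP-seq of WT HEK293T cells (4 libraries). These are 8 of the 52 samples of the series, and 42 of the 52 had a column in the table used here. The libraries were taken by their labels, and a transcript was tested if its count averaged at least 20 over the 8 libraries. 11651 of 226882 transcript identifiers met that level, and 139311 had a count in some of the 8 libraries. Groups from the same table were used to describe the transcripts: eIF2D-V5 40S Sel-TCP-seq, RNA-seq and Ribo-seq of MCTS1 KO, DENR siRNA, control siRNA and WT cells, and TCP-seq of MCTS1 KO and eIF2D KO cells.

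Translation complex profiling (TCP-seq) sequences the mRNA fragments that ribosomal complexes protect, and Sel-TCP-seq first picks those complexes that hold a chosen protein, here through a V5 tag. MCTS1 and DENR form a heterodimer that binds the 40S subunit and resembles the single-chain protein eIF2D in its domains. Both are known for removing deacylated tRNA from 40S subunits after termination, which frees the subunit from the mRNA, and for allowing reinitiation after some short upstream reading frames. The sources used here do not give how the tagged proteins were expressed or which ribosomal fraction the unselected libraries hold. The WT libraries carry no label of a tag or a mock selection, so tagging and selection cannot be told apart from binding to MCTS1 or DENR in any of the differences below.

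The files give transcripts by identifier only, so no gene name, gene family, sequence or position is given. The mRNA of the tagged proteins and the markers of the cell line were not checked for the same reason. Transcripts are instead described by how much RNA and how many ribosomes they carried in WT cells, measured in RNA-seq and Ribo-seq libraries that have no part in the comparison.

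The selected libraries were shallower. The totals were 356019 and 622051 counts for MCTS1-V5 and 629784 and 482612 for DENR-V5, against 3084003, 1922878, 2453221 and 1900382 for WT. The fixed level of 20 counts therefore asked more of a transcript found mainly in the selected libraries than of one found mainly in WT. A transcript seen in the selected libraries alone needed 76.5 CPM (counts scaled to a library total of 1000000) to be tested, and one seen in WT alone needed 17.1 CPM. The 1235 transcripts just inside the level (means of 20 to 22) had a median of 11.6 CPM in the selected libraries and 15.0 CPM in WT. The 1436 just outside it (18 to 20) had 9.79 CPM in the selected libraries and 13.8 CPM in WT.

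The replicates differed in how closely they agreed. The DENR-V5 libraries differed from each other by 1.28 times the variance that counting gives, the MCTS1-V5 libraries by 4.21 times, and WT libraries with neighbouring library numbers by 2.01 and 2.04 times. WT libraries from different runs of numbers differed by 3.60 to 7.11 times. MCTS1-V5 replicate 2 stood apart. With every library thinned to 356019 counts, Spearman's rho with WT Ribo-seq across the tested transcripts was 0.63 for it, 0.41 for MCTS1-V5 replicate 1, 0.41 and 0.47 for DENR-V5, and 0.37 to 0.42 for WT. The eIF2D-V5 libraries had 0.58 and 0.72. These are descriptions across transcripts, which share reads and are not independent. The counts of calls over WT and the medians of the main classes are also given without MCTS1-V5 replicate 2.

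**Figure D1:**
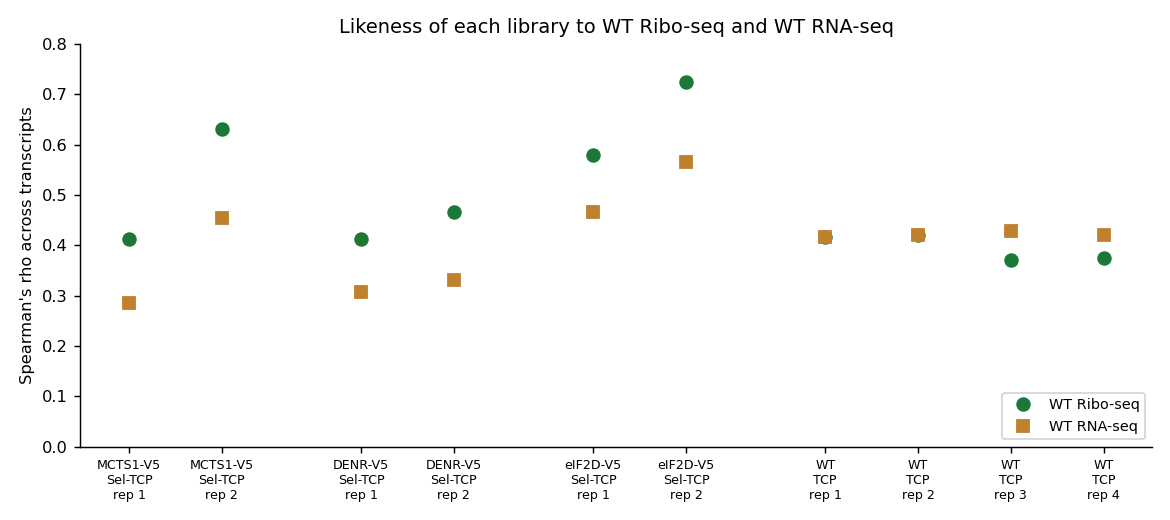
Spearman's rho (vertical axis, no unit) of each library (horizontal axis) with WT Ribo-seq (circles) and WT RNA-seq (squares) across the 11651 tested transcripts, after thinning. MCTS1-V5 replicate 2, at 0.63 with Ribo-seq, lies well above the other 3 MCTS1-V5 and DENR-V5 libraries, which lie at 0.41 to 0.47.

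Against WT TCP-seq, 1778 transcripts were higher in MCTS1-V5 and DENR-V5 complexes, 15.3% of those tested, and 2509 were lower, which is 21.5%. The test was edgeR's quasi-likelihood test of the mean of both tagged proteins against WT, with a Benjamini-Hochberg adjusted p under 0.05. Among called transcripts the falls were larger than the rises, but the entry level more readily admitted transcripts found mainly in WT. A transcript seen in WT alone entered at 17.1 CPM, and one seen in the selected libraries alone at 76.5 CPM. How much of the difference in size comes from this was not tested. The median log2 fold change was 0.79 among the transcripts that rose and -1.36 among those that fell, and it was -0.02 over all tested. Without MCTS1-V5 replicate 2, 1382 were higher and 2059 lower. At least 2-fold changes made up 504 of the rises and 1860 of the falls, and at least 4-fold changes 46 of the rises and 554 of the falls. In 2301 of the falls (91.7%) and 832 of the rises (46.8%) the 4 selected and 4 WT libraries did not overlap in CPM, against 31.6% of all tested transcripts. CPM carries no scaling factors, while the calls do. In CPM scaled by the factors of the test, 2115 of the falls (84.3%) and 1218 of the rises (68.5%) did not overlap, against 32.5% of all tested.

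The balance of rises and falls depends on the scaling between libraries. With library totals and no scaling factors the median of all tested transcripts moved to -0.32, and 718 transcripts were higher and 3715 lower. All 7 transcripts named below kept their direction and their call under that scaling. Transcripts of one gene can share reads. Deviations of replicates from their group mean that correlated above 0.95 were taken as a sign of this. By that rule the tested transcripts fall into 5805 groups of shared reads. The rises came from 980 of these groups and the falls from 1478.

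**Figure D2:**
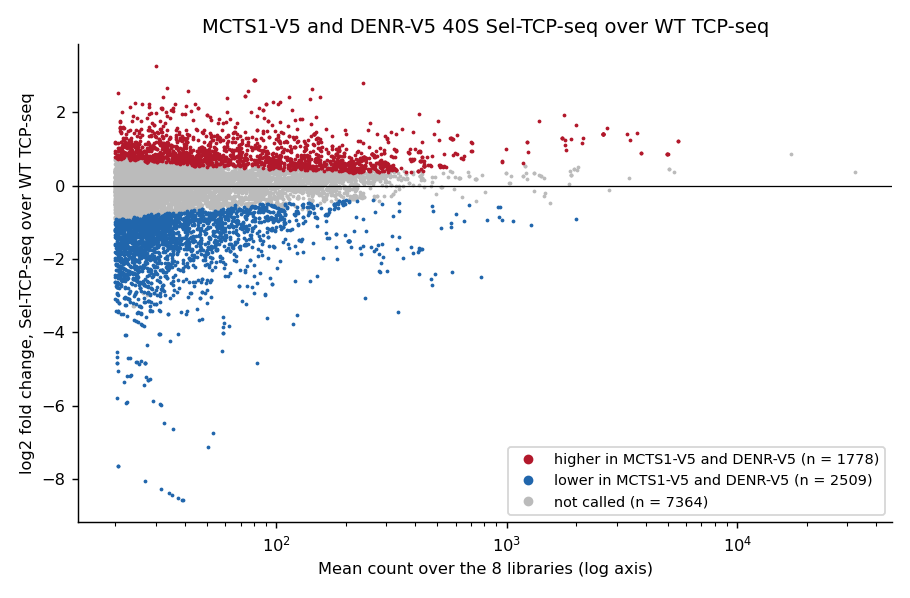
Log2 fold change of MCTS1-V5 and DENR-V5 Sel-TCP-seq over WT TCP-seq (vertical axis) against the mean count over the 8 libraries (horizontal log axis), 1 point per transcript. The 2509 lower transcripts reach further from 0 than the 1778 higher ones, but the entry level admits large falls more readily than large rises. The lowest points include 43 transcripts with no count for at least 1 of the tagged proteins, whose fitted value is no measured size.

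The largest rise among called transcripts averaging at least 100 counts, with groups that did not overlap, was ENST00000384674.1. It had 629 and 333 CPM in MCTS1-V5 and 656 and 551 CPM in DENR-V5, against 70.0, 83.7, 101 and 88.9 CPM in WT. Every selected library was above every WT library, as the rule of choice required, and MCTS1-V5 replicate 2 was the lowest of the 4. The log2 fold change was 2.79 ± 0.21 (SE, edgeR adjusted p = 4.03e-09). The transcript averaged 0.95 ± 0.07 CPM in WT RNA-seq (SD, n = 2) and 0.29 ± 0.30 CPM in WT Ribo-seq (SD, n = 2). Its level in TCP-seq was thus far above its level in either.

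ENST00000384574.1 was the next largest rise. It had 340 and 233 CPM in MCTS1-V5 and 324 and 354 CPM in DENR-V5, against 43.1, 44.2, 67.7 and 63.2 CPM in WT. By the same rule of choice the groups did not overlap, and the log2 fold change was 2.64 ± 0.19 (SE, edgeR adjusted p = 3.52e-09). WT RNA-seq held 0.21 ± 0.02 CPM of it (SD, n = 2) and WT Ribo-seq 0.10 ± 0.08 CPM (SD, n = 2). Both of these transcripts were also higher in eIF2D-V5 complexes than in WT, by 1.60 for ENST00000384674.1 and 1.66 for ENST00000384574.1 on the log2 scale.

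The largest fall among called transcripts averaging at least 100 counts, with groups that did not overlap, was ENST00000581392.2. It had 3 and 3 counts in MCTS1-V5 and 5 and 3 counts in DENR-V5, against 287, 218, 219 and 206 counts in WT. That is 8.43 and 4.82 CPM in MCTS1-V5 and 7.94 and 6.22 CPM in DENR-V5, against 93.1, 113, 89.3 and 108 CPM in WT. The log2 fold change was -3.77 ± 0.29 (SE, edgeR adjusted p = 2.49e-09). The transcript met the level of 100 counts through WT alone, so this fall and its p-value are descriptions. From the summed counts, 14 against 930, the CPM ratio of selected to WT was 0.067, with an exact 95% interval of 0.037 to 0.114 that covers counting error only. No count of it was found in WT Ribo-seq, and WT RNA-seq averaged 0.017 CPM.

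ENST00000384776.1 was the next largest fall by the same rule. It had 5.62 and 11.2 CPM in MCTS1-V5 and 7.94 and 6.22 CPM in DENR-V5, against 91.4, 75.4, 132 and 115 CPM in WT. The groups did not overlap, and the log2 fold change was -3.54 ± 0.32 (SE, edgeR adjusted p = 2.39e-08). The summed counts were 17 in the selected libraries and 970 in WT, and the CPM ratio was 0.078, with a counting interval of 0.046 to 0.126. WT RNA-seq held 0.025 CPM of ENST00000384776.1 and WT Ribo-seq none. RNA-seq and Ribo-seq of the same cell line thus hardly contained any of these 4 transcripts.

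**Figure D3:**
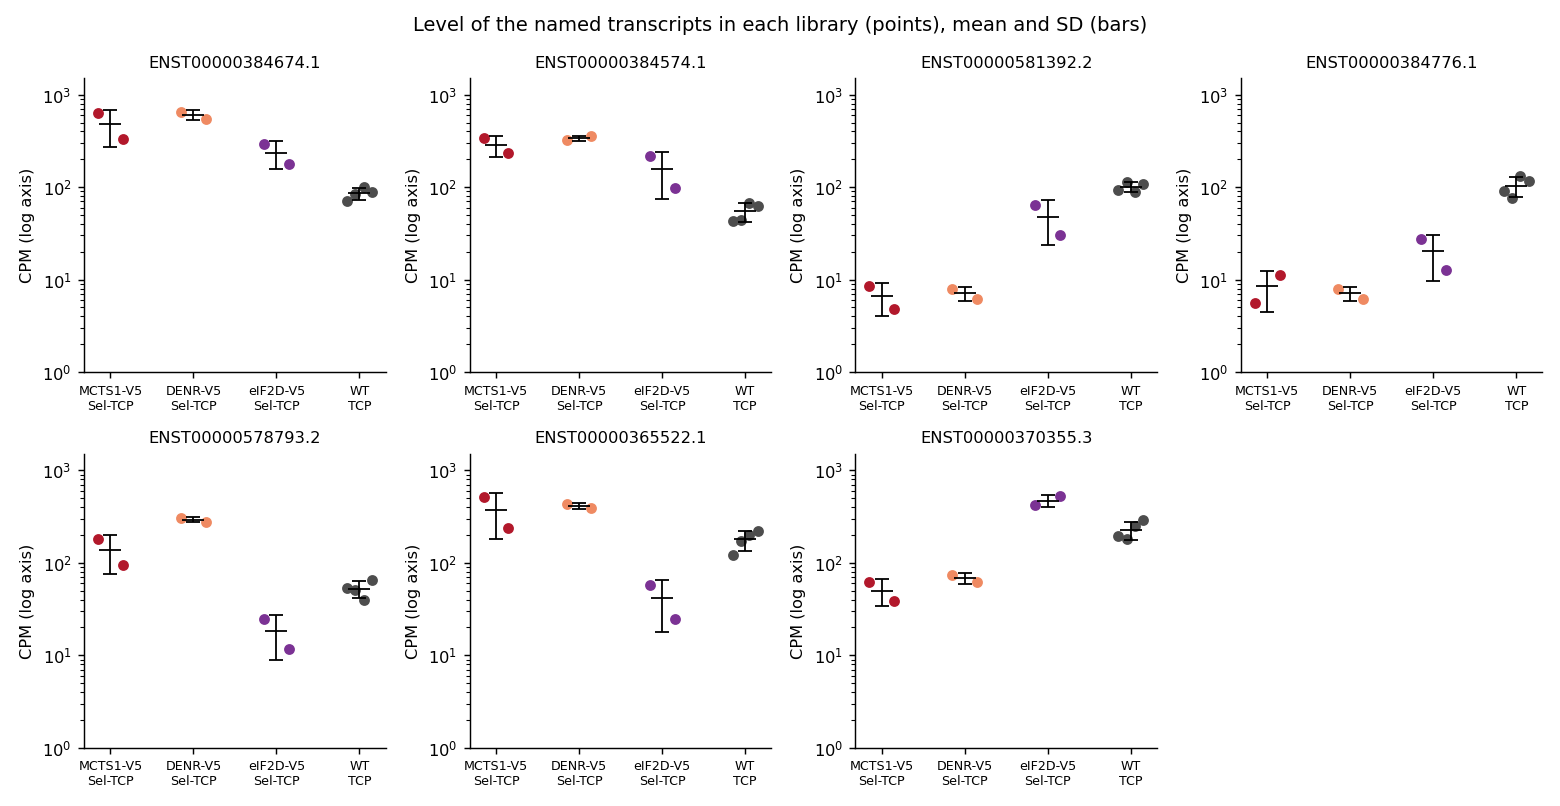
CPM (vertical log axis) of the 7 named transcripts in each MCTS1-V5, DENR-V5, eIF2D-V5 and WT library (points), with the mean and SD of each group (bars). For the rise ENST00000384674.1 the lowest selected value is 333 CPM and the highest WT value 101 CPM. For the fall ENST00000581392.2 the highest selected value is 8.43 CPM and the lowest WT value 89.3 CPM.

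The 15 largest rises and the 15 largest falls, which include these 4, differed in their RNA levels. The 15 largest rises among transcripts of at least 100 counts with groups that did not overlap had log2 fold changes of 1.77 to 2.79. 9 of the 15 lay under 0.5 CPM in WT RNA-seq, and their median was 0.067 CPM there and 0.29 CPM in Ribo-seq. The 15 largest falls chosen the same way had log2 fold changes of -3.77 to -2.33. 4 of them lay under 0.5 CPM in RNA-seq, and the median of the 15 was 4.63 CPM in RNA-seq and 3.14 CPM in Ribo-seq. Over all tested transcripts the medians were 25.2 CPM in RNA-seq and 23.3 CPM in Ribo-seq, and 5.59% lay under 0.5 CPM in RNA-seq. Of the 4221 transcripts with a mean count of 50 or more, 356 lay under 0.5 CPM. Over all calls the order was the opposite, with RNA-seq medians of 38.1 CPM among the higher and 25.6 CPM among the lower transcripts. The level of 100 counts was easier to meet for transcripts found mainly in WT, and its part in these lists was not tested.

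43 tested transcripts had no count in both libraries of a tagged protein, 36 in MCTS1-V5 and 16 in DENR-V5. Such transcripts entered the test mainly through their counts in the deeper WT libraries, so a lower call was fixed by the entry level and is a description. 9 of them had no count in any of the 4 selected libraries. Each of the 9 had counts in every WT library, with medians of 85, 60, 65 and 68 counts in WT replicates 1 to 4. Set against a floor of 3 counts over the 4 selected libraries together (1.44 CPM), they were at least 12.2-fold to at least 23.3-fold lower than in WT. In the eIF2D-V5 libraries every one of the 9 had counts, with a median of 5.28 CPM. Unlike ENST00000581392.2 and ENST00000384776.1, these 9 had ample RNA, with a median of 34.8 CPM in WT RNA-seq, and few ribosomes, with 0.45 CPM in WT Ribo-seq. They fall into 8 groups of shared reads, and whether they come from fewer genes was not tested.

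Each tagged protein was also set against WT alone. MCTS1-V5 gave 1411 higher transcripts (12.1%) and 1649 lower ones (14.2%). DENR-V5 gave 1069 higher transcripts (9.18%) and 1629 lower ones (14%). These comparisons share the 4 WT libraries, which by itself makes their fold changes alike. Both depended on single libraries: leaving out MCTS1-V5 replicate 2 left 588 higher and 489 lower for MCTS1-V5, leaving out DENR-V5 replicate 1 left 344 higher and 547 lower for DENR-V5, and leaving out DENR-V5 replicate 2 left 354 higher and 411 lower.

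Directly compared, MCTS1-V5 and DENR-V5 differed in no transcript past the threshold in edgeR or in DESeq2 (0% of 11651). In edgeR 1161 transcripts (9.96%) had an unadjusted p under 0.05, and the smallest adjusted p was 0.291. The median size of the log2 difference between the tagged proteins was 0.37, against 0.46 for both over WT. The absence of calls does not show that both proteins hold the same transcripts. Without MCTS1-V5 replicate 1, which leaves the Ribo-seq-like replicate 2 as the only MCTS1-V5 library and assumes that it varies like the other groups, 182 transcripts were higher in MCTS1-V5 and 95 lower.

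To compare the tagged proteins without shared controls, MCTS1-V5 was set against WT replicates 1 and 2 and DENR-V5 against WT replicates 3 and 4. Across transcripts Spearman's rho between the fold changes was 0.70, as a description. MCTS1-V5 then had 700 higher and 796 lower transcripts, and DENR-V5 had 1827 higher and 2288 lower. 503 were higher in both, which is 71.9% of the MCTS1-V5 list and 27.5% of the DENR-V5 list. 686 were lower in both, which is 86.2% of the MCTS1-V5 list and 30.0% of the DENR-V5 list, and none was called in opposite directions. With the WT pairs exchanged rho was 0.65, 588 were higher in both, 943 were lower in both and 16 had opposite calls. Library preparation by selection is shared by both sides of this comparison, and its part was not tested.

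**Figure D4:**
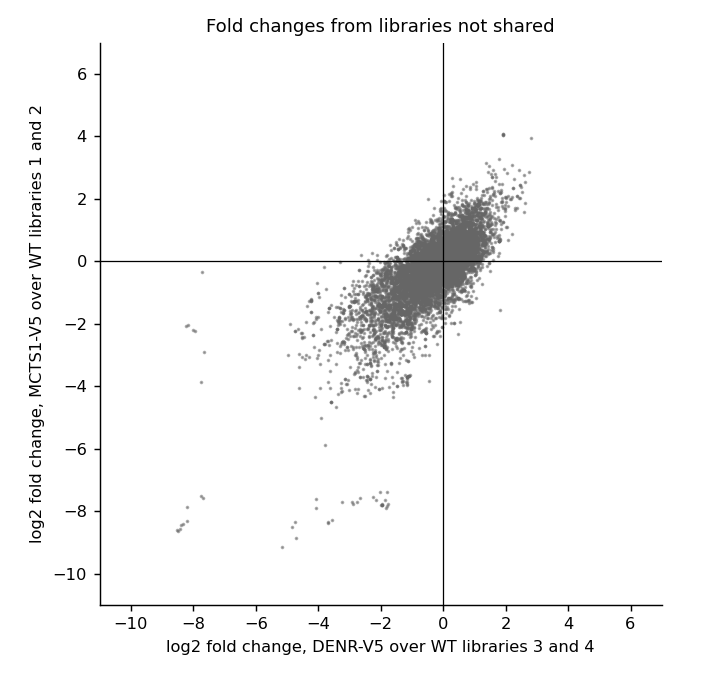
Log2 fold change of MCTS1-V5 over WT replicates 1 and 2 (vertical axis) against that of DENR-V5 over WT replicates 3 and 4 (horizontal axis), 1 point per tested transcript and no library in common. The points run along a rising diagonal (rho 0.70), with a longer tail below 0 on both axes. Large falls pass the entry level more readily than large rises.

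The transcripts that rose carried more ribosomes per RNA in WT cells than those that fell. The ratio of Ribo-seq to RNA-seq CPM had a median of 1.35 among the 1778 higher transcripts and 0.582 among the 2509 lower ones, against 0.990 over all tested. Ribo-seq levels were 62.8 CPM among the higher and 12.9 CPM among the lower transcripts (medians), while RNA-seq levels were 38.1 CPM among the higher and 25.6 CPM among the lower ones. The 11000 transcripts with at least 0.5 CPM in RNA-seq were divided by this ratio into quartiles of 2750. From the lowest to the highest quartile the share called higher was 5.31%, 8.65%, 15.7% and 24.7%. The share called lower was 46%, 25.9%, 10.6% and 5.09%. Without MCTS1-V5 replicate 2 the highest quartile had 15.5% higher and 4.07% lower, and the lowest had 6.62% higher and 36.1% lower.

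The median log2 fold change of MCTS1-V5 and DENR-V5 over WT was -0.62, -0.16, 0.10 and 0.26 from the lowest to the highest quartile. The highest quartile lay 0.87 above the lowest in MCTS1-V5 and DENR-V5 together. By library, set against the WT mean, that gap was 0.68 and 1.22 for MCTS1-V5 and 0.63 and 0.83 for DENR-V5, against 0.10, 0.10, -0.14 and -0.07 for the WT libraries. All 4 selected libraries lay above all 4 WT libraries, and MCTS1-V5 replicate 2 had the widest gap. Without that library the gap was 0.72, and the highest quartile's own median was 0.15. The sign of that median depends on the scaling, since with library totals it was -0.04, but the gap was 0.87 there too.

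Within the lowest quartile the fall was deeper at ratios under 0.25 than in the rest. Of 91 transcripts with a ratio under 0.05, 53 fell (58.2%) and 7 rose, with a median log2 fold change of -1.15. Of 663 with a ratio of 0.05 to 0.25, 394 fell (59.4%) and 54 rose, with a median of -1.02. Of the other 1996, 818 fell (41%) and 85 rose, with a median of -0.54. For the ratio under 0.05 the medians were -1.38 for MCTS1-V5 and -0.87 for DENR-V5, and -0.895 for eIF2D-V5 over the same WT libraries. At 0.05 to 0.25 they were -1.12 for MCTS1-V5, -0.88 for DENR-V5 and -0.99 for eIF2D-V5. Under 0.25, the median was thus lower in the set of lowest ratio for MCTS1-V5 alone. These sets were not split by library, and the part of MCTS1-V5 replicate 2 in this was not tested. In the rest of the quartile the medians were -0.62 for MCTS1-V5, -0.46 for DENR-V5 and -0.52 for eIF2D-V5. RNA-seq levels hardly differed between these 3 sets, with medians of 27.7, 25.6 and 24.5 CPM.

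Transcripts with almost no RNA-seq signal did not follow this order. 651 tested transcripts lay under 0.5 CPM in WT RNA-seq, and 282 of them rose (43.3%) and 101 fell (15.5%), with a median log2 fold change of 0.44. They were 5.59% of the tested transcripts, 15.9% of those that rose and 4.03% of those that fell. Their share of the tested counts was 26.8% and 17.4% in MCTS1-V5 and 24.0% and 22.5% in DENR-V5, against 12.8%, 15.2%, 16.5% and 17.6% in WT. The value of MCTS1-V5 replicate 2, 17.4%, lay within the WT range, and those of the other 3 selected libraries lay above it. Without that replicate 301 of the 651 rose and 72 fell, and the median was 0.59. Without MCTS1-V5 replicate 1 the median was 0.28.

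The 651 were mixed in their ribosomes. 369 had under 1 CPM in WT Ribo-seq, and 145 of these rose and 76 fell. 187 had at least 10 CPM in Ribo-seq, and 102 of these rose and 11 fell. The range of log2 fold changes was -4.83 to 3.27 in the set with little Ribo-seq signal, leaving out 4 transcripts with no count for a tagged protein, and -1.85 to 2.13 in the set with at least 10 CPM. The 95 transcripts with 1 to 10 CPM in Ribo-seq ranged from -3.45 to 2.88, and 35 of these rose and 14 fell. Among the 651, transcripts below 1 CPM in both assays thus supplied the extremes in both directions, but they are also the largest set. A rare transcript and one that the RNA-seq method captures poorly cannot be told apart in these counts.

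**Figure D5:**
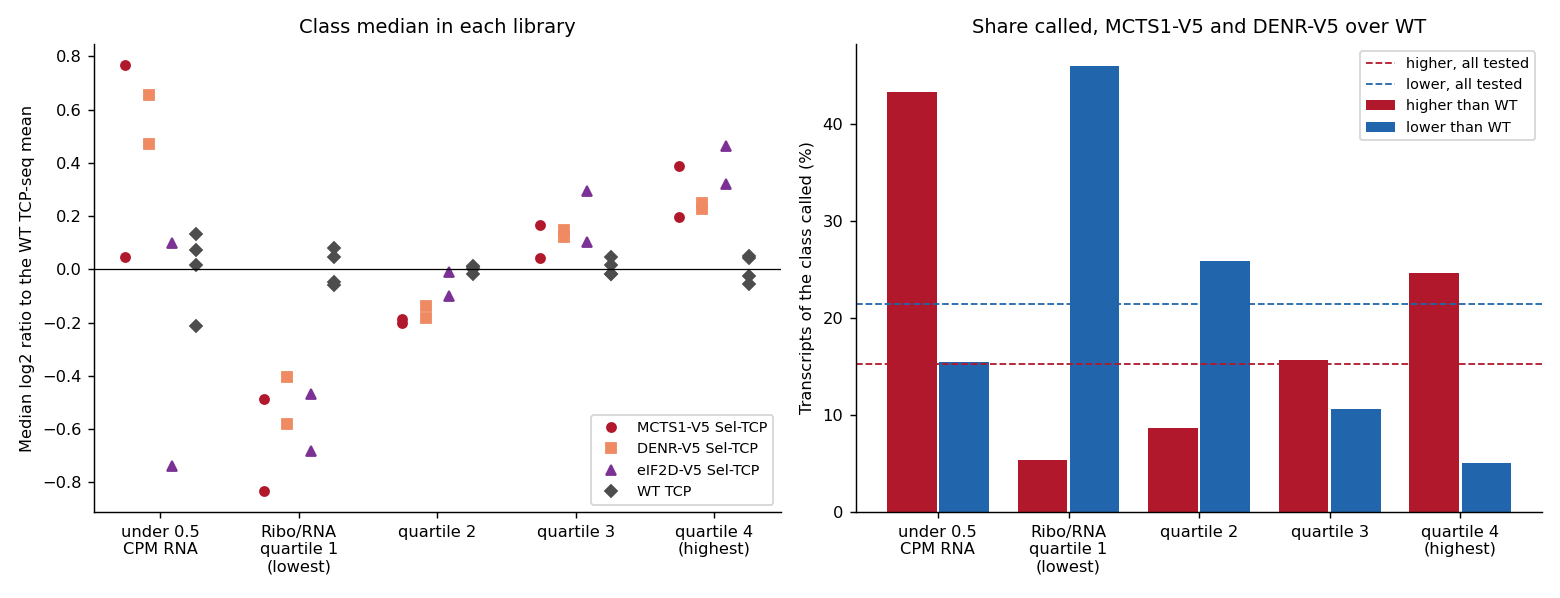
Left, the median log2 ratio to the WT TCP-seq mean (vertical axis) of each class of transcripts in each MCTS1-V5, DENR-V5, eIF2D-V5 and WT library (points). Right, the percent of each class called higher or lower in MCTS1-V5 and DENR-V5 over WT (bars), with the percent over all tested transcripts as dashed lines. Calls of lower transcripts go down from 46% to 5.09% over the Ribo-seq to RNA-seq quartiles, and the class under 0.5 CPM in RNA-seq has 43.3% higher.

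eIF2D-V5 complexes, selected through the same tag, separate what the MCTS1 and DENR selections share with another 40S selection. The eIF2D-V5 libraries held 1017092 and 2582917 counts, differed from each other by 8.50 times counting noise and had rho values of 0.58 and 0.72 with WT Ribo-seq, against 0.63 for MCTS1-V5 replicate 2. Against eIF2D-V5, 1195 transcripts were higher in MCTS1-V5 and DENR-V5 (10.3%) and 2013 were lower (17.3%). Without eIF2D-V5 replicate 2 these numbers were 369 higher and 912 lower. eIF2D-V5 over the same WT libraries showed the same order by Ribo-seq to RNA-seq ratio: its medians from the lowest to the highest quartile were -0.63, -0.05, 0.23 and 0.41. MCTS1-V5 and DENR-V5 over eIF2D-V5 had medians of -0.03, -0.14, -0.15 and -0.16 in the same quartiles, against -0.08 over all tested.

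The position of eIF2D-V5 among transcripts with little RNA-seq signal rests on 1 library. Over WT their median log2 fold change was 0.39 for MCTS1-V5, 0.52 for DENR-V5 and -0.33 for eIF2D-V5, but 0.07 for eIF2D-V5 without its replicate 2. By library the median ratio to the WT mean was 0.77 and 0.04 for MCTS1-V5, 0.65 and 0.47 for DENR-V5, and 0.10 and -0.74 for eIF2D-V5. MCTS1-V5 replicate 2 thus lay below eIF2D-V5 replicate 1. Against eIF2D-V5, 237 of the 651 were higher in MCTS1-V5 and DENR-V5 and 23 lower, with a median of 0.62. Their share of tested counts was 14.6% and 8.40% in the eIF2D-V5 libraries. Without eIF2D-V5 replicate 2, the one with 8.40%, 83 were higher and 29 lower, and the median was 0.28. Of the 15 largest rises over WT, 14 were also higher than in eIF2D-V5 past the threshold, against 10.3% of all tested. Of the 15 largest falls, 10 were also lower than in eIF2D-V5, against 17.3% of all tested. Both lists were chosen by the same MCTS1-V5 and DENR-V5 libraries that are set against eIF2D-V5 here. These counts follow in part from that choice and are descriptions. Without eIF2D-V5 replicate 2 fewer of the rises passed, and as many of the falls.

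ENST00000578793.2 had the largest excess over eIF2D-V5 among called transcripts of at least 100 counts with groups that did not overlap. It had 183 and 94.8 CPM in MCTS1-V5 and 305 and 280 CPM in DENR-V5, against 24.6 and 11.6 CPM in eIF2D-V5. WT TCP-seq lay between them, at 53.5, 50.4, 40.0 and 65.8 CPM. The log2 fold change over eIF2D-V5 was 3.62 ± 0.37 (SE, edgeR adjusted p = 8.70e-06), or 2.96 without eIF2D-V5 replicate 2 (edgeR adjusted p = 0.000228), and over WT it was 2.06 ± 0.20 (SE, edgeR adjusted p = 2.27e-07). WT RNA-seq had no count of it, and WT Ribo-seq averaged 3.31 ± 2.17 CPM (SD, n = 2).

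ENST00000365522.1 followed. It had 517 and 238 CPM in MCTS1-V5 and 432 and 390 CPM in DENR-V5, against 58.0 and 24.8 CPM in eIF2D-V5. WT TCP-seq lay between them here too, at 121, 173, 201 and 222 CPM. The log2 fold change over eIF2D-V5 was 3.36 ± 0.45 (SE, edgeR adjusted p = 0.000159). Over WT it was 1.27 ± 0.24 (SE, edgeR adjusted p = 0.000500), and eIF2D-V5 lay below WT by 2.06 on the log2 scale (edgeR adjusted p = 0.00157). For both ENST00000365522.1 and ENST00000578793.2, MCTS1-V5 and DENR-V5 thus lay above WT and eIF2D-V5 below it.

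ENST00000370355.3 went the other way, and it is the only named transcript that is abundant in RNA-seq (161 ± 0.05 CPM) and Ribo-seq (100.4 ± 0.17 CPM, both SD, n = 2). It had 61.8 and 38.6 CPM in MCTS1-V5 and 74.6 and 62.2 CPM in DENR-V5, against 421 and 523 CPM in eIF2D-V5. WT TCP-seq again lay between, at 196, 179, 247 and 287 CPM. The log2 fold change was -3.01 ± 0.24 over eIF2D-V5 (SE, edgeR adjusted p = 5.43e-07) and -1.85 ± 0.21 over WT (SE, edgeR adjusted p = 1.76e-06). Its summed counts were 123 in the MCTS1-V5 and DENR-V5 libraries and 2102 in WT. It thus met the level of 100 counts through WT, and its fall over WT with the p-value is a description. eIF2D-V5 was higher than WT by 1.20 (edgeR adjusted p = 0.000184). ENST00000581392.2, described above for its fall over WT, was also below eIF2D-V5, by -2.74 ± 0.41 (SE, edgeR adjusted p = 8.61e-05), with 64.9 and 30.6 CPM in eIF2D-V5.

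A comparison that shares no library with MCTS1-V5 over WT is DENR-V5 over eIF2D-V5. Of 1521 transcripts lower in MCTS1-V5, 342 were lower in DENR-V5 than in eIF2D-V5 (22.5%) and 62 higher (4.08%). The 8810 transcripts not called in MCTS1-V5 had 11% lower and 11.4% higher. Of 1320 transcripts higher in MCTS1-V5, 256 were higher in DENR-V5 than in eIF2D-V5 (19.4%) and 203 lower (15.4%). Both shares among the higher transcripts were above those of transcripts not called. The numbers of MCTS1-V5 calls differ from those above because this fit was made with the 10 libraries together.

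Loss of MCTS1 or DENR gave readouts from libraries outside the comparison. Translational efficiency (TE) is the Ribo-seq change beyond the RNA-seq change. In MCTS1 KO cells (2 clones, 2 libraries each per assay, against 2 WT libraries per assay), TE was higher for 37 and lower for 42 of the 1723 transcripts that rose in the selections and could be tested, which is 2.15% and 2.44%. Among 2460 that fell in the selections, 11 were higher (0.447%) and 30 lower (1.22%). Of all 11475 tested in both, 1.01% were higher and 1.5% lower. As a description, both shares among the transcripts that rose were above those over all tested.

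In RNA-seq of MCTS1 KO cells, 12.9% of the transcripts that rose in the selections were higher and 14% lower, and 10.6% of those that fell were higher and 17.5% lower. The background was 11.3% higher and 16.9% lower. Ribo-seq by itself was near its background too. Among the transcripts that rose in the selections 216 were higher and 215 lower (12.5% each), against 12.1% and 12.1% of all tested. Among those that fell in the selections 268 were higher (10.9%) and 276 lower (11.2%).

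In DENR siRNA cells (2 siRNAs against control siRNA, 2 libraries each per assay), TE was higher for 5 and lower for 17 of 1696 transcripts that rose in the selections (0.295% and 1.00%). Among 2455 that fell in the selections, 44 were higher (1.79%) and 20 lower (0.815%). Of all 11420 tested in both, 0.937% were higher and 0.447% lower. In RNA-seq 295 (12%) of the transcripts that fell were higher and 767 (31.2%) lower, against 12.1% higher and 21.8% lower of all tested. Of those that rose, 192 were higher in RNA-seq (11.3%) and 339 lower (20%). TE is taken beyond the RNA-seq change, and the part of these RNA-seq changes in the TE shares was not tested. Ribo-seq was higher for 133 (7.84%) and lower for 387 (22.8%) of the transcripts that rose, against 10.3% and 17.7% of all tested. Among those that fell, 321 were higher (13.1%) and 503 lower (20.5%). The TE shares rest on few transcripts in both experiments. The transcripts that rose and fell also differ in Ribo-seq depth (medians of 62.8 and 12.9 CPM in WT), whose part in these shares was not tested.

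Few of the named transcripts could be read in these cells. ENST00000370355.3, low in the MCTS1 and DENR selections, fell by 0.27 in RNA-seq and 0.25 in Ribo-seq of MCTS1 KO cells on the log2 scale (edgeR adjusted p = 4.23e-05 and 0.000364). In DENR siRNA cells it rose by 0.17 in Ribo-seq (edgeR adjusted p = 0.0380), and its RNA-seq change was 0.10 ± 0.05 (SE, edgeR adjusted p = 0.217). Its TE change was 0.02 ± 0.07 in MCTS1 KO (SE, edgeR adjusted p = 1) and 0.06 ± 0.08 in DENR siRNA cells (SE, edgeR adjusted p = 0.900). ENST00000384674.1 had TE changes of 0.07 ± 0.58 in MCTS1 KO (SE, edgeR adjusted p = 1) and -0.49 ± 0.56 in DENR siRNA cells (SE, edgeR adjusted p = 0.886), whose errors are too wide to tell. In TCP-seq without selection, MCTS1 KO clones had 64.3 ± 4.00 and 57.0 ± 9.48 CPM of ENST00000384674.1 (SD, n = 2 each) and eIF2D KO clones had 88.8 ± 10.2 and 58.2 ± 5.22 CPM (SD, n = 2 each), against 85.8 ± 12.7 CPM in WT (SD, n = 4). One eIF2D KO clone was as low as the MCTS1 KO clones, and these differences were not tested here.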

How the data were processed

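The deposited file of the authors holds raw counts for each transcript, as whole numbers. The tools named in the submitters' processing notes are cutadapt, STAR, featureCounts and Subread, and the builds are GRCh38.p13 and hg38. The sources used here give neither the rule for reads on several transcripts nor the use of strand, so overlapping and antisense transcripts cannot be told apart.

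Counts were tested with edgeR 4.0.16 in R 4.3.3 (robust quasi-likelihood test, TMM, Benjamini-Hochberg adjustment, threshold 0.05) on transcripts with a mean count of at least 20, with MCTS1-V5, DENR-V5 and WT as coefficients. The eIF2D-V5 comparison added that group. The p-values leave out the spread between tagged proteins. TE was the interaction of group and assay, fitted on 141910 transcripts for MCTS1 KO and 138375 for DENR siRNA. Separate cultures are not named for the replicates, and p-values measure a spread between libraries that may be technical. CPM uses library totals, and fold changes use TMM factors. Ratios of Ribo-seq to RNA-seq had 0.1 CPM added to each.

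On simulated counts of 11506 transcripts with 200 changed, the test of MCTS1-V5 and DENR-V5 over WT recovered 76.8% of 2-fold and 97.9% of 4-fold changes and called 6 unchanged ones. The data gave 1778 higher and 2509 lower calls, and how the test does with that many transcripts changed was not tested.

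Named transcripts are the 2 largest rises and falls of a comparison among those called, with a mean count of at least 100 and groups that did not overlap. Over WT, both tagged proteins also had to change in the same direction. The members and lists were chosen with earlier results of these data known. The classes by RNA-seq and Ribo-seq, their splits, the groups of shared reads (replicate deviations correlated above 0.95) and the comparisons without shared libraries were chosen after values had been seen, and carry no test of their own. Gene lists and cell markers of the plan were not used, since no identifier was matched to a gene. Alternatives were other scaling and filters, DESeq2 1.42.0, other WT libraries, a replicate block, leaving out each library, thinning, and transcripts of shared reads taken once.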

Additional observations from a re-analysis of the deposited data

Results flagged for a closer look

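6 of the 7 named transcripts moved by different amounts over WT in the MCTS1-V5 and DENR-V5 complexes than in the eIF2D-V5 complexes, by a test of that difference, and ENST00000384776.1 did not pass it (-1.16, edgeR adjusted p = 0.0801). 4 of the 6 were named for their difference from eIF2D-V5, ENST00000581392.2 among them, so for these the test restates the choice. ENST00000384674.1 and ENST00000384574.1 were chosen as the largest rises over WT in the same MCTS1-V5 and DENR-V5 libraries. Their test is therefore not independent of the choice either. The 3 named for their change over WT follow. The difference in log2 fold change was 1.23 for ENST00000384674.1 (edgeR adjusted p = 0.00438), 1.02 for ENST00000384574.1 (edgeR adjusted p = 0.0269) and -2.74 for ENST00000581392.2 (edgeR adjusted p = 8.61e-05). Without eIF2D-V5 replicate 2 the call was lost for ENST00000384674.1 (0.83, edgeR adjusted p = 0.0976) and ENST00000384574.1 (0.46, edgeR adjusted p = 0.336). It remained for ENST00000581392.2 (-3.33, edgeR adjusted p = 1.90e-05). All 4 MCTS1-V5 and DENR-V5 libraries lay above both eIF2D-V5 libraries for the first pair and below both for ENST00000581392.2.

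WT TCP-seq replicate 3 held 26.94% of its tested counts in the quartile of highest Ribo-seq to RNA-seq ratio, against 28.2% to 28.4% in the other 3 WT libraries. Its gap to the nearest was large for the range of the 4. It is 1 of 28 sets of 4 values looked at, and chance flags about 1 in 20. MCTS1-V5 and DENR-V5 libraries held 29.0% to 33.2%.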

How the results depend on the processing

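All 7 named transcripts kept their direction and their side of the threshold over WT under each alternative that gave them a value, with a highest adjusted p of 0.00703 in edgeR or DESeq2. Leaving out transcripts under 0.5 CPM in RNA-seq left 2 of the 7, and taking transcripts of shared reads or the same counts once gave counts of calls only. These counts did move. Against 4287 calls for both proteins over WT, filterByExpr gave 8204, a mean count of 50 gave 1618 and no filter 9864 (1219 higher, 8645 lower), as different numbers of transcripts were tested. Taking transcripts of shared reads once gave 2427 and thinning to the smallest total 2679. With filterByExpr, the other counts were 5285 for MCTS1-V5, 4263 for DENR-V5 and 5134 against eIF2D-V5. With a mean count of 50 they were 1214 for MCTS1-V5, 1105 for DENR-V5 and 1355 against eIF2D-V5, and no filter gave 7059 against eIF2D-V5. DESeq2 gave 3833 calls for both proteins over WT.

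The highest quartile's median, 0.26, turned to -0.043 with library totals, and it was 0.125 with a mean count of 50 and 0.013 with no filter. The lowest quartile's was -0.912 with library totals and -0.855 with no filter. The gap between both was 0.588 with a mean count of 50. The replicate numbers were not used as pairs in the main test. Deviations of same-numbered libraries correlated by 0.07 between MCTS1-V5 and DENR-V5, and by 0.00 and -0.00 between each of them and WT. With 2 libraries per tagged protein, this cannot show whether same-numbered libraries were handled together. With a replicate block the calls were 2872 for both proteins, 1799 for MCTS1-V5, 1731 for DENR-V5 and 3460 against eIF2D-V5.

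Leaving out each library in turn gave 3160 to 4356 calls for both proteins, 1077 to 3099 for MCTS1-V5, 765 to 3296 for DENR-V5, 0 to 277 between them and 1281 to 3582 against eIF2D-V5. Medians ranged over 0.284 to 0.594 (low RNA-seq), -0.73 to -0.57 (lowest quartile), 0.153 to 0.319 (highest) and 0.722 to 1.049 (gap). Taking 1 transcript per gene was not run, since no identifier was matched. Selected libraries of 356019 to 629784 counts limit what can be seen of rare transcripts.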
